A study of Danio rerio with 6 samples.

Results

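CTCF binding in *ctcf*-/- embryos at 48 hours post fertilization (hpf) was compared with that in wild-type (WT) embryos of the same stage, from the CTCF peaks listed for each library. Members were chosen by their labels, as the libraries titled *ctcf*-/- at 48 hpf (2 replicates) and wild type at 48 hpf (2 replicates), which gave 4 of the 6 libraries of the study. Their lists hold 68567 of the 162429 peaks. The other 2 libraries, of WT embryos at 24 hpf, serve here only as a further readout at the same positions. All libraries were made from whole embryos, pooled where the methods describe it, with ChIPmentation, in which immunoprecipitated chromatin is cut and tagged by the Tn5 transposase. Each peak is therefore an average over all tissues. The *ctcf*-/- embryos are homozygous for a CRISPR/Cas9 deletion in the *ctcf* gene that brings in an early stop codon. They are zygotic mutants from heterozygous parents and receive CTCF from the mother during early development. The paper no longer detected this protein in nuclei at 24 hpf, though it held some residue possible then. By western blot at 48 hpf it reported complete loss. WT embryos carry no such deletion and come from AB/Tübingen strains. Both genotypes were profiled with the same rabbit antibody, raised against residues 723 to 798 at the C-terminal end of zebrafish CTCF, an end that the protein predicted from the mutant allele lacks.

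CTCF is a zinc finger protein that binds a long DNA motif and holds chromatin loops together with cohesin, and its sites are common at the boundaries of topologically associating domains. Many sites lie close together along the chromosome, and neighbouring sites can share the work of one boundary. For a factor of this kind, a peak is centred on the bound motif, its height reflects how often the motif is occupied in the pool of cells, and its width grows with its height.

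The 4 lists differ most in length. Replicates 1 and 2 have 2717 and 1706 peaks in *ctcf*-/-, and 31014 and 33130 in WT. The mean was 2212 ± 715 peaks in *ctcf*-/- and 32072 ± 1496 in WT (SD, n = 2 each), and the genotypes did not overlap. With 2 libraries against 2, the exact two-sided permutation test gave p = 0.333, which is the smallest value that this design can give, here and for every other comparison of libraries below. No test over sites was made, because sites are not replicates of a genotype. The lists give no read totals, so depth was read from the lowest background in a list, which was 8.50 and at most 4.00 tags per 10 kb in the *ctcf*-/- replicates, against 19.8 and 17.9 in the WT replicates. Depth thus moved with genotype, and its part in the loss of sites was not tested.

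A CTCF site is, for each genotype, a region of overlapping peaks with a peak from each replicate. This gave 844 sites in *ctcf*-/- embryos and 23959 in WT embryos. A WT site overlapped by a *ctcf*-/- site is called persisting and any other depleted, which means only that it did not meet this rule. Of the WT sites, 798 persisted, or 3.33%. When a peak of 1 *ctcf*-/- library was enough, the share was larger. Replicate 1 on its own had a peak at 1353 WT sites (5.65%) and replicate 2 on its own at 1446 (6.04%). Both *ctcf*-/- lists had a peak at 800 WT sites, and at 2 of these the peaks did not overlap each other. Another 553 sites had a peak only in replicate 1 and 646 only in replicate 2. No *ctcf*-/- peak was listed at 21960 WT sites (91.7%). A WT site with a peak in replicate 2 therefore also had one in replicate 1 in 55.3% of cases, and a site with a peak in replicate 1 had one in replicate 2 in 59.1%.

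Both *ctcf*-/- libraries differed from each other in where their remaining peaks lay. In replicate 1, 1360 peaks (50.1%) fell on a WT site, 167 on a peak of 1 WT list and 1190 (43.8%) on no WT peak. In replicate 2 the numbers were 1457 (85.4%), 49 and 200 (11.7%). The peaks away from WT peaks were low, with a median of 7 fragments at the summit in each replicate, and only 1.34% of them in replicate 1 and 8% in replicate 2 were found in the other replicate. At WT sites the *ctcf*-/- peaks had a median of 11 and 12 fragments, and 58.6% and 55.4% of them were shared. At the level of sites, 797 of the 844 *ctcf*-/- sites lay at a WT site and 47 did not.

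Persisting sites were placed in 2 classes by a cut on local background, the number of fragments that MACS2 expected at the peak from its surroundings. Local background is a continuous value, so the classes need not be distinct kinds of site. It is called high here where it reached 20 times the lowest value of its list in either WT replicate, so this label uses WT libraries only. It applied to 297 WT sites, of which 151 persisted (50.8%). Among the 297, 9 had their nearest WT site 10 to 30 kb away and 6 had it 30 to 100 kb away. The median percentiles of these by −log10 q were 98.3 and 99.0, so the class also holds strong sites without a close neighbour. Of the 23662 sites of low local background 647 persisted (2.73%). The persisting sites of low background were strong WT sites, since 465 of them (71.9%) lay in the strongest decile of WT sites by −log10 q, against 8.18% of the depleted sites. Among the persisting sites of high background, 24.5% lay in that decile. Their median pileup, the number of fragments at the summit, was 86 and 44 in the *ctcf*-/- replicates and 85 and 59 in the WT replicates. Their median local background was 112 and 113 times the lowest of the list in *ctcf*-/-, and 40.8 and 28.2 times in WT. Whether these sites mark CTCF binding cannot be told from lists of peaks. Their fold enrichment was low in both genotypes, with medians of 5.86 and 6.46 in the *ctcf*-/- replicates and 5.86 and 6.56 in the WT replicates. Fold enrichment divides by local background, so low values in WT follow in part from the label itself. At persisting sites of low background the median fold enrichment was 9.39 and 10.6 in *ctcf*-/-, against 21.3 and 21.3 in WT. Fold enrichment of both *ctcf*-/- replicates lay below that of both WT replicates at 570 of the 647 sites of low background (88.1%) and at 41 of the 151 sites of high background (27.2%). Fold enrichment is relative to the background of its own library and was not normalized between libraries, so this order describes the lists and depends on their depth. A constant is added to pileup and background before the division, and it weighs more where both are small, as in the *ctcf*-/- lists. The order of the ratio without this constant was not tested.

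Sites were lost on every chromosome, and to a similar extent. Among the 25 chromosomes, the share of WT sites that persisted had a median of 3.09% and ran between 2.21% and 4.53%, a 2.05-fold range. Chromosome 14 kept most, with 38 of 838 sites (4.53%, 95% Wilson interval 3.32 to 6.16), followed by chromosome 4 with 37 of 839 (4.41%, 3.22 to 6.02). Chromosome 1 kept fewest, with 22 of 995 (2.21%, 1.46 to 3.33), followed by chromosome 9 with 22 of 928 (2.37%, 1.57 to 3.56). These intervals cover counting error only. For 24 of the 25 chromosomes the interval held the overall share of 3.33%, and the exception was chromosome 1.

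Part of the spread between chromosomes came with the sites of high background. Without them the shares ran between 2.01% and 3.63%, and all 25 intervals held the overall share of 2.73%. Chromosome 10 moved most in this way, with 33 of 860 sites persisting (3.84%) in all and 2.15% among sites of low background, because 15 of its 33 persisting sites had a high background. Chromosome 17 likewise held 15 such sites among 40 and chromosome 4 held 12 among 37. On chromosomes 9 and 18 no WT site had a high background. The replicates gave different orders. The share of WT sites with a peak of *ctcf*-/- replicate 1 ran between 3.52% and 7.99% over chromosomes and that of replicate 2 between 4.23% and 8.22%, with a Spearman's rho of 0.403 across the 25 chromosomes, which share the same 2 libraries. Chromosome 4 was highest in both. WT strength was also taken into account. The number of persisting sites observed, over that expected from the strength deciles of the chromosome, was 1.41 on chromosome 4, 1.27 on chromosomes 14 and 17, 0.739 on chromosome 1 and 0.733 on chromosome 18. These ratios rest on 22 to 40 persisting sites each, with the sites of high background included, and a difference beyond counting error is not shown by them. Scaffolds that are not placed on a chromosome stood apart, with 43 of 468 sites persisting (9.19%, 6.89 to 12.1), and with 6.98% among sites of low background.

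**Figure D1:**
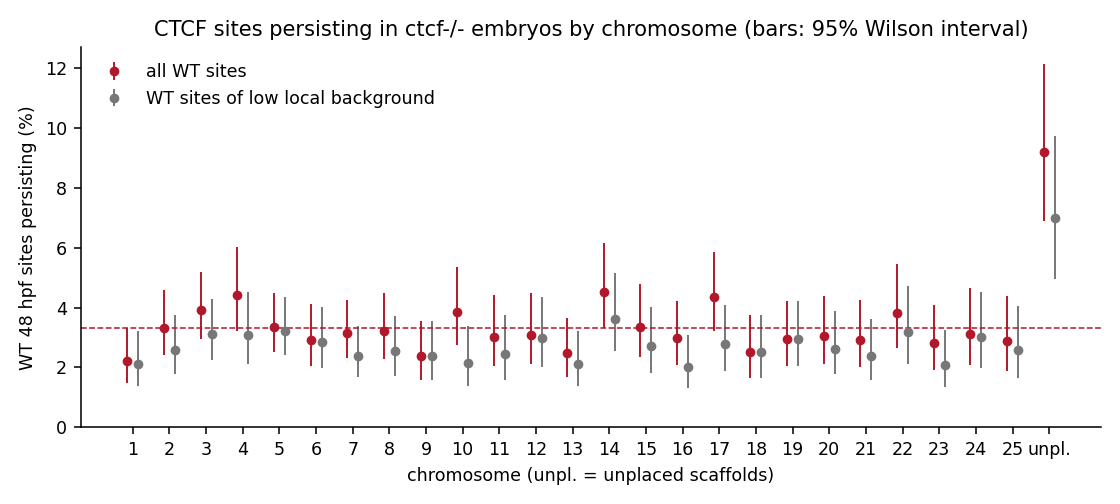
Share of WT 48 hpf CTCF sites that persisted in *ctcf*-/- embryos (y axis, percent) for each chromosome and for unplaced scaffolds (x axis). Points are shares, bars are 95% Wilson intervals, red is all WT sites, grey is those of low local background, and the dashed line is the overall share of 3.33%. The 25 chromosomes lie between 2.21% and 4.53% and the unplaced scaffolds at 9.19%.

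At a finer scale the persisting sites were uneven. Of the 1340 windows of 1 Mb with a WT site, 850 (63.4%) had no persisting site, 347 had 1 and 129 had 2 to 4. The 14 windows with 5 or more held 110 persisting sites, of which 86 were of high background. The fullest window, on chromosome 10 from 16000001 to 17000000 (danRer10), had 13 persisting sites among 29, all within 50.8 kb and all of high background, with 21 and 18 peaks in the *ctcf*-/- lists. On chromosome 2 from 19000001 to 20000000, 11 of 20 sites persisted within 59.8 kb, 7 of them of high background. On chromosome 4 from 28000001 to 29000000, 10 of 29 persisted within 52.0 kb, 8 of them of high background. At the other extreme, the window on chromosome 23 from 27000001 to 28000000 had 36 WT sites and that on chromosome 13 from 28000001 to 29000000 had 28, and neither held a peak in either *ctcf*-/- list.

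Loss of sites spread the remaining ones far apart. The median distance to the nearest other site was 277 kb in *ctcf*-/- embryos (quartiles 14.7 and 1061 kb), against 15.6 kb in WT embryos (quartiles 7.04 and 33.4 kb). In single lists the nearest peak lay at a median of 130 and 179 kb in the *ctcf*-/- replicates, against 12.3 and 12.1 kb in the WT replicates. Within 30 kb, 27.7% of *ctcf*-/- sites and 71.2% of WT sites had another site. A neighbour within 1 kb was found for 7.94% of *ctcf*-/- sites and 4.37% of WT sites. This order did not hold in the single lists, where 7.36% and 5.69% of *ctcf*-/- peaks had a neighbour within 1 kb, against 8.52% and 8.47% of WT peaks, and of the persisting sites of low background only 1.24% had another such site within 1 kb.

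To compare spacing at equal numbers, each WT list was shortened to its strongest peaks by −log10 q, as many as the *ctcf*-/- list of the same replicate number holds. The median distance was then 130 kb in *ctcf*-/- replicate 1, against 124 kb for as many WT peaks, and 179 kb in *ctcf*-/- replicate 2, against 213 kb. Closer neighbours were more frequent in *ctcf*-/-, where 16.1% and 14.3% of the peaks had another within 10 kb, against 5.08% and 3.46% of as many WT peaks. Peaks of high local background made up a larger share of the *ctcf*-/- lists. The cut is relative to the lowest background of each list, so their numbers are not on 1 scale between lists. In *ctcf*-/- replicate 2 this lowest background is an upper bound, so its number of such peaks is a lower bound. The whole WT lists held 351 and 287 such peaks (1.13% and 0.866%), and most were left out when these lists were shortened. Judged against the lowest background of their own list, the peaks of high local background numbered 321 and 203 in the *ctcf*-/- lists (11.8% and 11.9%), against 56 and 44 of as many WT peaks. Without them, 4.97% and 3.79% of the remaining 2396 and 1503 *ctcf*-/- peaks had a neighbour within 10 kb, against 4.17% and 2.89% of the remaining 2661 and 1662 WT peaks. The medians were then 165 and 235 kb in *ctcf*-/-, against 128 and 226 kb in WT, so the order in replicate 2 turned. Fragments of neighbouring peaks count towards local background, so leaving these peaks out removes close neighbours in part by construction.

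**Figure D2:**
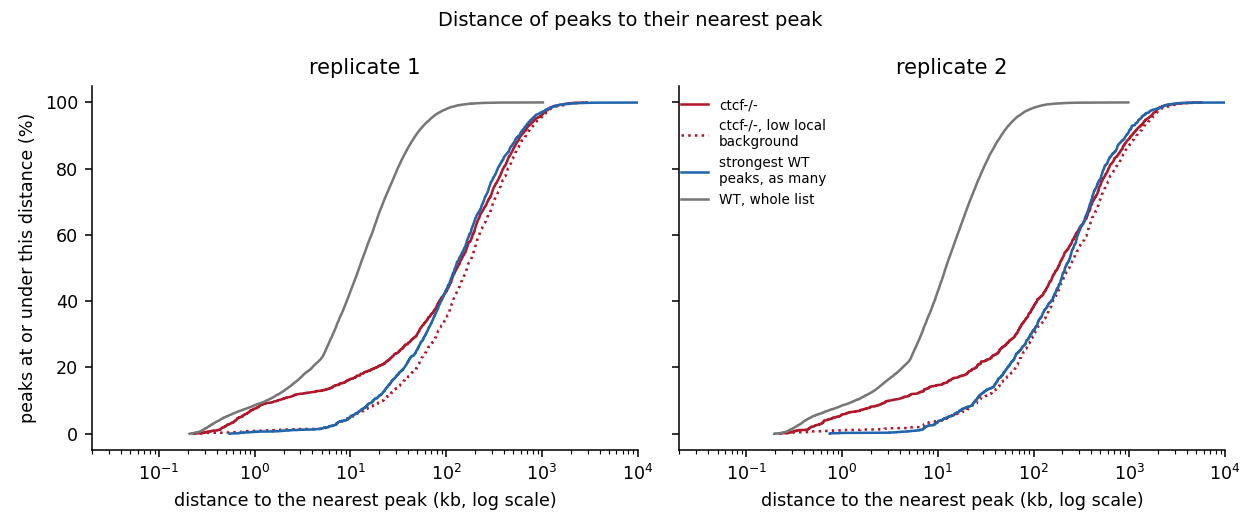
Distance from each peak to the nearest peak of the same list (x axis, kb, log scale) against the share of peaks at or under that distance (y axis, percent), for replicates 1 (left) and 2 (right). Solid red is the *ctcf*-/- list, dotted red its peaks of low local background, blue the strongest WT peaks in equal number and grey the whole WT list. Under 10 kb the solid red line is above the blue (16.1% and 14.3% against 5.08% and 3.46% at 10 kb), and the dotted line is close to it.

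Among WT sites with a neighbour on the same sequence, the share that persisted was higher at short range. Of the sites with another WT site within 1 kb, 8.68% persisted (91 of 1048, interval 7.13 to 10.5), and between 1 and 2 kb 7.22% did (62 of 859, 5.67 to 9.15). The share was 4.65% between 2 and 5 kb and 2.63% between 5 and 10 kb. Beyond this it was 2.81% between 10 and 30 kb, 2.55% between 30 and 100 kb and 2.93% above 100 kb. The 195 WT sites that were alone on their sequence, all on unplaced scaffolds and all of low background, stood apart, with 14 persisting (7.18%, 4.32 to 11.7), and are in none of these bins. Both *ctcf*-/- lists followed this course on their own. Replicate 1 had a peak at 13.2% of the sites with a neighbour within 1 kb and at 4.62% of those between 30 and 100 kb, and replicate 2 at 10.8% and 4.96%.

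Most of the rise at short range lay in sites of high background, which made up 111 of the 1048 sites within 1 kb and 6 of the 6695 sites whose nearest neighbour was over 30 kb away. Among sites of low background, 4.06% persisted within 1 kb (2.97 to 5.52), 3.17% between 1 and 2 kb, 2.94% between 2 and 5 kb, and 2.36% to 2.93% in the bins above. Over all sites with a neighbour within 10 kb, 4.37% persisted (3.95 to 4.83), against 2.60% of those whose nearest neighbour was over 30 kb away (2.24 to 3.01). For low background these shares were 2.78% (2.45 to 3.17) and 2.54% (2.19 to 2.95), and their intervals overlapped. Distances were still measured to WT neighbours of either class, here and in the classes of strength below. With the sites of high background left out as neighbours too, the shares were 2.68% and 2.67%. Within classes of strength, the bin within 1 kb also had the highest share, but the shares did not fall steadily with distance. In the strongest decile, low background only, 34.8% of the 46 sites with a neighbour within 1 kb persisted (22.7 to 49.2), 27.1% of the 133 between 2 and 5 kb, and 18.9% of the 977 between 10 and 30 kb (16.6 to 21.5). In all other deciles together, low background only, 2.47% persisted within 1 kb (1.64 to 3.71) and no bin above exceeded 1.24%. Pooled, 1.13% persisted there within 10 kb (0.911 to 1.40) and 0.711% over 30 kb (0.529 to 0.957).

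**Figure D3:**
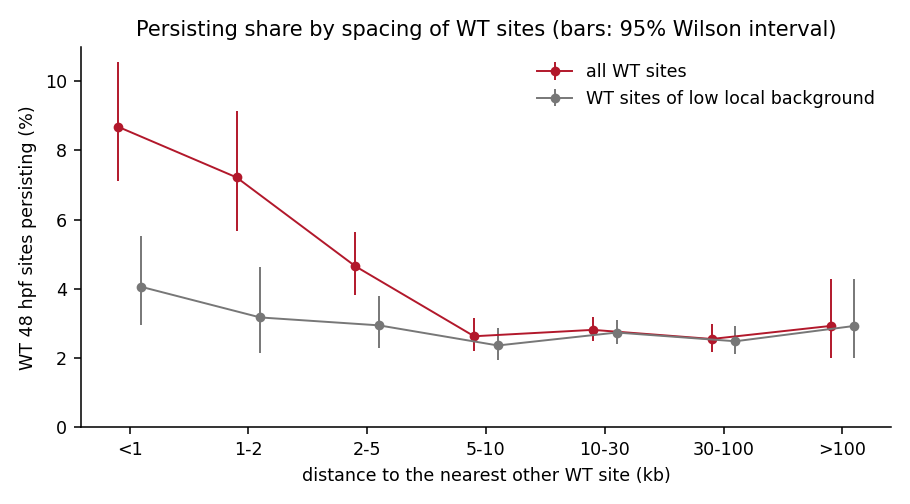
Share of WT 48 hpf sites that persisted in *ctcf*-/- embryos (y axis, percent) by distance to the nearest other WT site (x axis, kb). Red is all sites, grey is sites of low local background, bars are 95% Wilson intervals. The red points fall with distance, with 8.68% under 1 kb and 2.63% between 5 and 10 kb, and the grey points lie between 2.36% and 4.06% throughout.

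Persisting sites had a persisting neighbour more often than depleted ones. The nearest WT site also persisted for 131 of 784 persisting sites (16.7%, 14.3 to 19.5), against 629 of 22980 depleted sites (2.74%, 2.53 to 2.96). For sites of low background the shares were 7.74% (5.90 to 10.1) and 2.52% (2.33 to 2.73), so a difference was also present among these sites. Their nearest WT site could be of either class of background, and the part of high-background neighbours in this difference was not tested. Grouped at a gap of 30 kb, the WT sites formed 5625 runs of 2 or more sites, and 5162 of these runs (91.8%) kept no site. Another 398 kept 1 site, 65 kept 2 or more and 10 kept every site. Long runs kept a larger share of sites. In the 61 runs of 10 or more sites 11.8% persisted, against 4.02% in runs of 5 to 9, 2.88% in runs of 2 to 4 and 2.73% of solitary sites. Among sites of low background the share in the long runs was 4.93%, and it was 2.66% to 2.67% in the shorter runs and solitary sites. The *ctcf*-/- sites themselves formed 61 runs with 234 sites, the largest of 16 sites, while the largest WT run had 36.

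WT peaks that persisted were wide. Their median width was 403 and 407 bp in WT replicates 1 and 2, against 264 and 273 bp at depleted sites. Of the sites at most 200 bp wide on average, 0.444% persisted (20 of 4500), and the share rose with every step of width to 17.5% of the 1088 sites wider than 500 bp (15.3 to 19.8). Width and strength go together, and within deciles of WT strength the difference was smaller. Strength still varies within a decile, and its part in the remaining difference was not tested. Persisting sites were wider in 9 of 10 deciles, by a median of 49.2 bp in the strongest decile. The exception was the eighth decile, with a difference of −3.75 bp. Deciles 1 to 7 held only 6 to 28 persisting sites each, many of high background, as were 14 of 20 in decile 5. In decile 7 the difference was 3 bp.

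In *ctcf*-/- embryos the peaks at these same sites were narrow. Their median width was 227 and 214 bp in the *ctcf*-/- replicates, against 403 and 407 bp in the WT replicates. The median difference at a site was between −166 and −180 bp over the 4 pairings of a *ctcf*-/- with a WT library, against 11 bp between the *ctcf*-/- replicates and 3 bp between the WT replicates. Both *ctcf*-/- peaks were narrower than both WT peaks at 647 of the 798 sites (81.1%), and both were wider at 21. The *ctcf*-/- peak lay wholly inside the WT peak at 76.8% to 86.1% of the sites, depending on the pairing. Persisting sites are chosen by overlap of the genotypes, which favours this in part. For low background, narrower peaks were the rule, at 597 of 647 sites (92.3%), whereas for high background they were found at 50 of 151.

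Narrowing went with lower peaks, and how much of it comes with the lower depth of the *ctcf*-/- libraries was not tested. At persisting sites the median pileup was 14 and 16 fragments in *ctcf*-/- against 73 and 65 in WT. Between peaks of the same pileup and low local background, the widths of the genotypes were close. With 9 to 11 fragments at the summit, median width was 175 and 176.5 bp in *ctcf*-/- and 172 and 180 bp in WT. With 12 to 15 fragments it was 201 and 199 bp in *ctcf*-/- and 202 and 210 bp in WT. Above this the libraries parted unevenly. At 16 to 23 fragments, width was 243.5 and 220 bp in *ctcf*-/- and 243 and 252 bp in WT, so that only *ctcf*-/- replicate 2 was narrower than both WT lists. At 24 to 40 fragments both were narrower, with 271 and 262 bp in *ctcf*-/- and 300 and 311 bp in WT, from 62 and 93 *ctcf*-/- peaks. At 41 to 80 fragments, with only 9 and 12 *ctcf*-/- peaks, width was 372 and 303.5 bp in *ctcf*-/- and 369 and 382 bp in WT. The narrowest peak of a list also differed, at 158 and 151 bp in *ctcf*-/- and 142 bp in both WT lists.

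**Figure D4:**
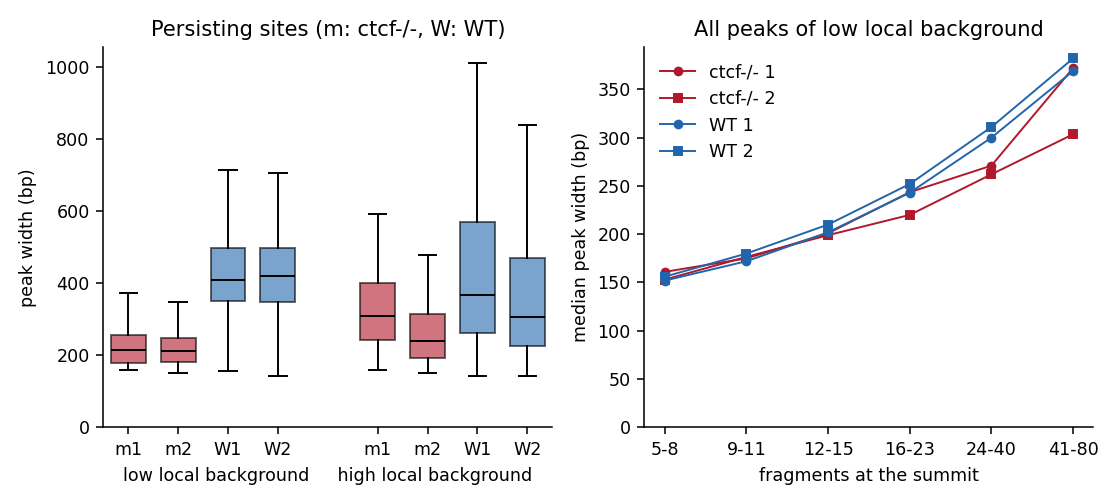
Left, peak width (y axis, bp) at the 647 persisting sites of low and the 151 of high local background in *ctcf*-/- replicates 1 and 2 (m1, m2, red) and WT replicates 1 and 2 (W1, W2, blue); boxes are median and quartiles, and whiskers reach the last value within 1.5 times the interquartile range, with values beyond them not drawn. Right, median width (y axis, bp) of all peaks of low local background by the number of fragments at the summit (x axis), where the 4 libraries lie close together up to 15 fragments.

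Summits were compared at persisting sites, where the regions of the genotypes overlap by definition. A *ctcf*-/- site that had moved off its WT site is not among them, so such movement was not tested. The summit of the *ctcf*-/- peak fell inside the WT peak at 98.6% to 99.1% of the sites, a share that this rule favours. Its median distance from the summit of the WT peak was 20 to 23 bp over the 4 pairings. The *ctcf*-/- replicates were as far from each other, at a median of 23 bp, while the WT replicates were 11 bp apart at the same sites. A distance of at most 25 bp was found at 53.4% to 58.9% of the sites between genotypes, at 52.4% between *ctcf*-/- replicates and at 75.2% between WT replicates. Signed shifts were balanced, with medians between −3 and −1 bp in chromosome coordinates. Over all persisting sites, the distance between genotypes was thus no larger than that between replicates of the mutant, and both were larger than that within WT. At the 151 sites of high background the distance was 15 to 19 bp between genotypes, 13 bp within *ctcf*-/- and 10 bp within WT.

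The precision of a summit varied with pileup. Where both *ctcf*-/- peaks had over 15 fragments (286 sites), the distance was 16 to 17 bp between genotypes, 15 bp within *ctcf*-/- and 10 bp within WT. Where both had 15 or fewer (329 sites), it was 25 to 29 bp between genotypes, 29 bp within *ctcf*-/- and 11 bp within WT. WT replicates showed the same course over all WT sites, with 37 bp at 9 to 11 fragments in both, 32 bp at 12 to 15, 24 bp at 16 to 23 and 12 bp at 41 to 80. At 12 to 15 fragments the *ctcf*-/- replicates were 26 bp apart at 45 sites. Within the peak, the summit lay at a median of 0.485 and 0.483 of the width from its start in *ctcf*-/- and at 0.500 and 0.491 in WT. Its median distance from the centre of the peak was 17.5 and 15 bp in *ctcf*-/-, against 38.8 and 35 bp in the wider WT peaks at the same sites and 20 and 21.5 bp at depleted WT sites.

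**Figure D5:**
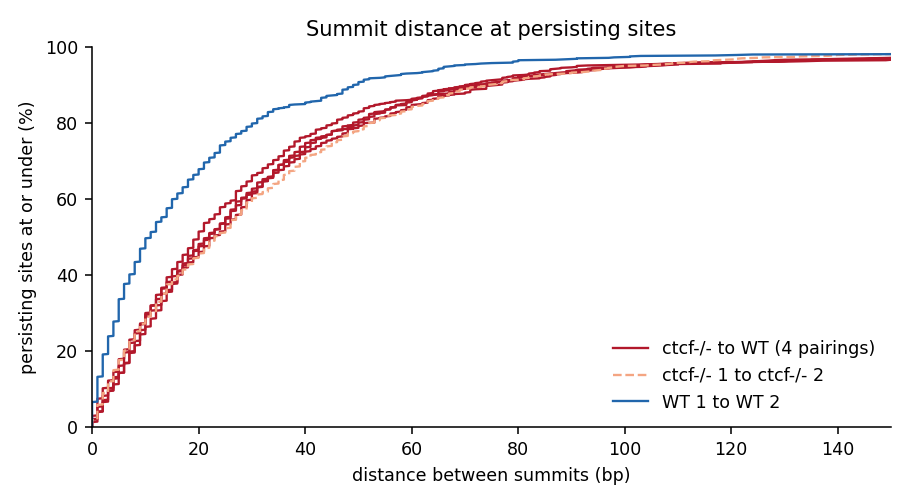
Distance between the summits of 2 libraries at the 798 persisting sites (x axis, bp) against the share of sites at or under that distance (y axis, percent). Red lines are the 4 pairings of *ctcf*-/- with WT, dashed is *ctcf*-/- replicate 1 with 2, and blue is WT replicate 1 with 2. At 25 bp the red and dashed lines lie between 52.4% and 58.9%, below the blue line at 75.2%.

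The sites that ranked highest in both *ctcf*-/- lists by −log10 q were not alike. On chromosome 18 from 13162195 to 13162424 (danRer10), a site 34.1 kb from the nearest other WT site, fold enrichment was 35.9 and 28.8 in *ctcf*-/- and 36.2 and 27.5 in WT. Its pileup was 95 and 53 fragments in *ctcf*-/- and 85 and 53 in WT and the genotypes overlapped, although the *ctcf*-/- libraries had the lower background. On chromosome 5 from 57977101 to 57977411, both *ctcf*-/- values lay above both WT values, with 19.2 and 19.2 in *ctcf*-/- and 18.1 and 16.8 in WT. On chromosome 15 from 16387210 to 16387852 the values were 25.2 and 29.6 in *ctcf*-/- and 25.1 and 25.96 in WT, which overlapped. This last site, of high local background in WT, was the widest of these 3, and its peaks were narrower in the mutant, at 438 and 265 bp, against 643 and 531 bp in WT.

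The other 3 of the 6 highest sites lay together in the run on chromosome 10. From 16842999 to 16843342, fold enrichment was 8.02 and 10.6 in *ctcf*-/- and 8.07 and 9.40 in WT, at local backgrounds of 193 and 219 times the lowest of the list in *ctcf*-/- and 77.7 and 57.5 times in WT. From 16831105 to 16831531 it was 12.002 and 13.2 in *ctcf*-/-, below 14.3 and 18.5 in WT. From 16880426 to 16881248 it was 7.27 and 10.4 in *ctcf*-/-, against 8.19 and 9.55 in WT. Their pileup in *ctcf*-/- was 100 to 215 fragments, above that of most peaks, whereas their enrichment was below that of the sites on chromosomes 18, 5 and 15. In *ctcf*-/- replicate 2 the lowest background is an upper bound, so its multiples are lower bounds.

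High occupancy in WT did not ensure that a site persisted. The 4 strongest WT sites without a peak in either *ctcf*-/- list were on chromosome 23 from 7554277 to 7554776, chromosome 12 from 47282958 to 47283360, chromosome 19 from 15888963 to 15889464 and chromosome 3 from 22748009 to 22748397. Their fold enrichment in WT lay between 27.4 and 31.0 and their pileup between 110 and 126 fragments, which put each at or above percentile 99.8 of both WT lists. All 4 had low local background and were also sites at 24 hpf. In the strongest WT decile as a whole, 502 of 2396 sites persisted (21.0%), and *ctcf*-/- replicates 1 and 2 had a peak at 29.7% and 32.6% of them.

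Some persisting sites marked the extremes of spacing, width and position. The most isolated, on chromosome 4 from 57548258 to 57548589, lay 1017 kb from the next WT site. Its fold enrichment was 20.3 and 20.7 in *ctcf*-/- and 27.8 and 24.4 in WT, and the summits of the genotypes were 3.50 bp apart. The next most isolated, on chromosome 3 from 3320347 to 3320651, lay 387 kb from another site, and its fold enrichment overlapped between genotypes, with 10.8 and 18.0 in *ctcf*-/- and 7.17 and 13.4 in WT. The widest WT peaks at persisting sites were on chromosome 15 from 7293081 to 7294275 and on chromosome 25 from 36871691 to 36872862, both of high background. Of these, the chromosome 15 site was about as wide in the mutant, at 1177 and 1088 bp against 1175 and 1189 bp in WT, and that on chromosome 25 was narrow there, at 247 and 236 bp against 1085 and 1172 bp. The narrowest, on chromosome 13 from 18986440 to 18986604 and on chromosome 4 from 68339696 to 68339866, were the 2 of these 6 that were not among the 24 hpf sites. Their peaks measured 310 and 159 bp in *ctcf*-/- against 157 and 144 bp in WT on chromosome 13, and 222 and 151 bp in *ctcf*-/- against 171 and 146 bp in WT on chromosome 4.

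Among persisting sites whose summits lay within 25 bp of each other in the replicates of each genotype, 2 had the largest summit distance between genotypes. On chromosome 16 from 26067381 to 26067597, the summit lay a median of 515.5 bp away in *ctcf*-/-. The peaks measured 975 and 295 bp in *ctcf*-/-, against 217 and 182 bp in WT. Both *ctcf*-/- summits, at 26067988 and 26067995, lay past the end of the WT site, and the 295 bp peak did not reach it. The distance here is thus not shown to be a shift within 1 site. On chromosome 8 from 34864671 to 34865323 the *ctcf*-/- summit lay 204.5 bp away, in peaks of 654 and 420 bp in *ctcf*-/- and 653 and 609 bp in WT. Both had a high local background and a close WT neighbour, at 0.390 kb for the site on chromosome 16 and 1.13 kb for that on chromosome 8.

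The earlier stage gave a readout that the choice of persisting sites did not use. Its replicates 1 and 2 were unequal, with 67512 and 26350 peaks, so the shorter list limits which sites count at 24 hpf. Of the persisting sites, 95.7% lay at a CTCF site of both WT replicates at 24 hpf (764 of 798, interval 94.1 to 96.9), against 74.3% of the depleted sites (17198 of 23161, 73.7 to 74.8). For low background the shares were 97.7% and 74.3%, and for high background 87.4% and 60.3%. Within either class of local background, persisting sites were more often present at both stages. Persisting sites were also the stronger ones at 48 hpf, at a median percentile of 96.5 for low background against 59.7 for depleted sites, and the part of strength in this difference was not tested.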

How the data were processed

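CTCF ChIPmentation libraries of whole zebrafish embryos were analysed from the deposited lists of peaks. As the authors deposited them, reads had been aligned with Bowtie2 to GRCz10 (danRer10), distant pairs removed, and peaks called per library by MACS2 (FDR under 0.001). The use of an input control is not given in the sources used here. The deposited fold enrichment, −log10 p and −log10 q are values of the summit within a library. Fold enrichment is the ratio of summit pileup to local background after the same constant is added to both. The deposited score repeats −log10 q and was not used.

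Members and lists were chosen with earlier results of these data known. Peaks of 2 replicates sharing at least 1 bp, directly or through a chain, were joined into a region, and a region with both replicates was a site. The strongest peak by −log10 q stood for each replicate. Spacing was measured between midpoints, and coordinates are 1-based. Pileup and local background were solved from fold enrichment and −log10 p under the Poisson model of MACS2, which fitted within 0.002 for 100% of the peaks. Expected numbers by chromosome were summed from the share persisting in each WT strength decile. Shares carry 95% Wilson intervals, which cover counting error only, and the p-value is an exact permutation test over libraries. Nothing in the labels says whether replicates are separate clutches, so the spread may be technical. Named sites follow a fixed rule on chromosomes 1 to 25. They are the 6 highest in *ctcf*-/-, the 4 strongest WT sites with no *ctcf*-/- peak and the 2 most isolated. The 2 widest and 2 narrowest, the 2 with the largest summit distance between genotypes, and the windows and chromosomes at the extremes are also named. The class of high local background from WT libraries was added after the data were seen. Functions were tested on simulated data. Python 3.11.15, numpy 2.4.6, pandas 2.3.3, scipy 1.17.1, statsmodels 0.14.6 and matplotlib 3.10.9 were used. Sequences and genes around sites are not reported here, because no annotation of danRer10 was used.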

Additional observations from a re-analysis of the deposited data

How the results depend on the processing

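Of 131 values recomputed under 12 settings, 65 moved by more than the spread between replicates or their counting interval. Only the width differences carry a sign, and neither changed it. The class of high local background in WT and the replicate block were chosen after seeing the data. With the replicate number as a block, the exact two-sided p for the number of peaks was 0.5, the smallest that 2 pairs can give, against 0.333 without it. Nothing in the labels says that a number marks a shared clutch or day, and neither p says anything about stability.

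At a −log10 q of at least 10 there were 461 *ctcf*-/- sites and 2.45% of WT sites persisted, with 1.11% on the lowest chromosome. The nearest site was 479 kb away in *ctcf*-/- and 20.2 kb in WT, and 3.79% persisted with a neighbour within 10 kb, against 1.86% with the nearest over 30 kb away. The WT width difference was 109.8 bp, the width difference between genotypes −153 bp and the summit distance 18 bp. At a −log10 q of at least 5 the WT distance was 15.8 kb. With 50% reciprocal overlap, 2.40% persisted, the WT distance was 16.6 kb, the 2 shares by spacing were 3.40% and 1.88%, and the 2 width differences 104 and −141.5 bp. On chromosomes 1 to 25 only, the *ctcf*-/- distance was 318 kb. Without WT sites of high background, 2.73% persisted, and the distances were 472 kb in *ctcf*-/- and 15.9 kb in WT. The 2 shares by spacing were then 2.68% and 2.67%, and the width differences 146.5 and −191.5 bp. Without sites of high background in *ctcf*-/-, which the outcome itself defines, these values were 2.70%, 526 kb, 15.8 kb, 2.67%, 2.57%, 154 bp and −199 bp. With WT lists shortened to the length of the *ctcf*-/- lists, the WT distance was 229.7 kb, 38.3% persisted with a near neighbour against 24.6% without, and the width differences were 46.8 and −218 bp. The cause of these moves was not tested.

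Leaving out 1 library at a time means that a site needs a peak of the remaining replicate only. The number of *ctcf*-/- sites then ran between 844 and 2717, the share persisting between 2.45% and 6.04%, the lowest chromosome between 1.59% and 4.23% and the highest between 3.32% and 8.22%. The nearest site lay between 129.8 and 277 kb in *ctcf*-/- and between 12.1 and 15.6 kb in WT. The share was between 3.06% and 7.31% with a near neighbour and between 1.71% and 5.03% without. The WT width difference ran between 121.5 and 171 bp, that between genotypes between −181.5 and −165 bp, and the summit distance between 21 and 26 bp. The shares moved by over 1.5 times without *ctcf*-/- replicate 1 (6.04%) and without *ctcf*-/- replicate 2 (5.65%), and the share without a near neighbour also without WT replicate 1 (1.71%). Depth limits what is called depleted, since the lists hold no value below their threshold.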
